A study of Mus musculus with 2 samples.

Results

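The genes described here are 34 markers of T cells, natural killer (NK) cells and innate lymphoid cells, chosen by symbol from a list of lineage markers. All 34 symbols were found among the 43346 mouse genes of the deposited gene tables. The tissue was the E18 (embryonic day 18) liver of the C57BL/6J strain, and its poly(A)+ RNA was read in 2 libraries, replicate 1 and replicate 2 of 1 group, with no treatment, mutation or second age. Per the labels, both come from littermates of both sexes pooled, and each replicate has a biosample entry of its own under 1 shared donor entry. No condition could be compared, so the levels are described and the 2 libraries are then set side by side, with no p-value for any gene.

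T cells recognise antigen through a receptor whose variable chains are carried to the surface by the CD3 chains, and they mature in the thymus rather than in the liver. NK cells and group 1 innate lymphoid cells do not rearrange that receptor; they kill or signal through germline-encoded receptors, granzymes and perforin. The fetal liver is a site of blood formation that holds lymphoid progenitors, and NK and innate lymphoid cells are found in it before birth. Several of the 34 genes are used outside these lineages. Id2 is expressed in many tissues, Lat also serves mast cells and platelets, and Lck, Tcf7 and Gata3 are also expressed outside T cells.

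Replicate 1 had 163766625 expected counts and replicate 2 had 139889938, of which 97.2% and 97.9% fell on mouse genes. An expected count is an estimated number of fragments, and TPM is that number per effective length, scaled to a fixed total. The hepatocyte genes Alb and Afp and the erythroid genes Hbb-bs and Klf1 were high in both libraries (Alb at 75317 and 75756 TPM in replicates 1 and 2). The libraries went against their shared label in one respect. Xist, the RNA of the inactive X chromosome, had 157187 counts in replicate 1 and 41 in replicate 2. A sum over 4 genes of the Y chromosome gave 8 counts in replicate 1 and 18351 in replicate 2, so sex and library cannot be told apart. Pancreas acinar genes were also higher in replicate 1 for 14 of 15 genes with enough counts (median log2 ratio 4.18), and striated muscle genes for 13 of 15 (median 1.75). In bulk tissue, fewer cells of a type and less RNA per cell cannot be told apart.

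The genes at the centre of the account lie in the CD3 cluster and at the 2 granzyme loci. Their promoter windows, from 250 bases before to 50 after the RefSeq start, are printed because neighbouring CD3 genes differed in level and because the granzymes were among the highest members. Positions are on GRCm38.p6, the patch release of mm10. Cd3d lies on the plus strand at chr9:44981536-44981835, Cd3g on the minus strand at chr9:44980382-44980681 and Cd3e on the minus strand at chr9:45009562-45009861. Gzma lies on the minus strand at chr13:113100932-113101231 and Gzmb on the minus strand at chr14:56262285-56262584. Capitals mark matches on either strand to short motifs of Runx (TGTGGT), Ets (AGGAAG), Tcf and Lef (TCAAAG) and Gata factors (AGATAA); the TATA box motif TATAAA was searched too and had no match in these windows. No matches overlapped each other.
Cd3d: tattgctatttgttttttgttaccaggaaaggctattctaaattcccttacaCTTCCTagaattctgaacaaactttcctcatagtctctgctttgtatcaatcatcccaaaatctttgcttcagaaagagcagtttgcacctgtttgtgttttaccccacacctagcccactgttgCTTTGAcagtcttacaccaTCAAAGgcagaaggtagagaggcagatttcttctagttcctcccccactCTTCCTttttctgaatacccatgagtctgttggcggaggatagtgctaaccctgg
Cd3g: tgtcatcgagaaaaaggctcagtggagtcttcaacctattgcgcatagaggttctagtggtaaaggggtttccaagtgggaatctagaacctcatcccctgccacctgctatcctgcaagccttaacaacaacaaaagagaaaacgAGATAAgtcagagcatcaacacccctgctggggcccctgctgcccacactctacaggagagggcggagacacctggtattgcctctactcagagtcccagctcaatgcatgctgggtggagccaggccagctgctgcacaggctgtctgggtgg
Cd3e: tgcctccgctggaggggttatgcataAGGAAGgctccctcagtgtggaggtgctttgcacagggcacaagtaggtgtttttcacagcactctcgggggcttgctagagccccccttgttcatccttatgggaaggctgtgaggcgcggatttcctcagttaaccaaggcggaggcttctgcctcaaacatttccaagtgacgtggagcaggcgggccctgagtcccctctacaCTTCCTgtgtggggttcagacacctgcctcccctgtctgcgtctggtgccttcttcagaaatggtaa
Gzma: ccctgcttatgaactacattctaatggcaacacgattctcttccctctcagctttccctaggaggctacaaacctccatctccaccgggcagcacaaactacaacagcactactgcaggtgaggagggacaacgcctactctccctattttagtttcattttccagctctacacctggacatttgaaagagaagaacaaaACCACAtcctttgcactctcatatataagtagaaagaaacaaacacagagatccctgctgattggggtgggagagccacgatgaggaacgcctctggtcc
Gzmb: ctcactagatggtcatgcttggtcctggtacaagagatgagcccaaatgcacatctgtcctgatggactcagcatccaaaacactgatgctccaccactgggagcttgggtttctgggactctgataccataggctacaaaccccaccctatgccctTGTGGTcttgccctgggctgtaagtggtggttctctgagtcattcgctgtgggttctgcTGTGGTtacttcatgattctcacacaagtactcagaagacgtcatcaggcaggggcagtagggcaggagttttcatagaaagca

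The Gzma window held 1 Runx match and the Gzmb window 2, and the 3 CD3 windows held none. The Cd3d window held 2 Ets and 2 Tcf matches, the Cd3e window 2 Ets matches and the Cd3g window 1 Gata match. Of the 34 members, 26 had a window in the RefSeq table. A Runx match stood in 13 of these 26 members (50%) and in 18.9% of the 27025 genes with a window. An Ets match stood in 53.8% of members and 38.4% of all genes, a Tcf match in 26.9% and 18.2%, a Gata match in 3.85% and 12.7%, and a TATA match in 7.69% and 15.7%. The E-box letters CANNTG, not marked in capitals, stood in 88.5% of members and 75.0% of all genes. A match is a string of letters and was not tied to any level here.

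Most of the 34 genes were present at low levels. A mean of at least 1 TPM was reached by 12 of 34, against 29.0% of all mouse genes and 54.7% of protein-coding genes. Together the members held 111 TPM in replicate 1 and 88.8 TPM in replicate 2, a mean of 99.8 ± 15.5 (SD, n = 2). Id2 alone held 64.5 and 54.8 TPM of these sums, and without it they were 46.3 and 34.0 TPM. In order of mean TPM, Id2 was followed by Gzma, Nkg7, Lat, Ccl5, Lck, Gzmb, Cd7, Il2rb, Tcf7, Thy1 and Klrd1. Of the 33 neighbouring pairs in the full order, 28 overlapped in the range of their 2 values. The 5 breaks fell below Id2, Ccl5, Klrd1, Cd27 and Cxcr6, and neighbours elsewhere in the order do not differ beyond their spread. Over all 561 pairs of members, neighbouring or not, 67 overlapped. The authors' software gave 33 members a posterior SD of 0 counts in both libraries, so its own uncertainty in sharing out their fragments was nil; Cd247 was the exception.

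**Figure D1:**
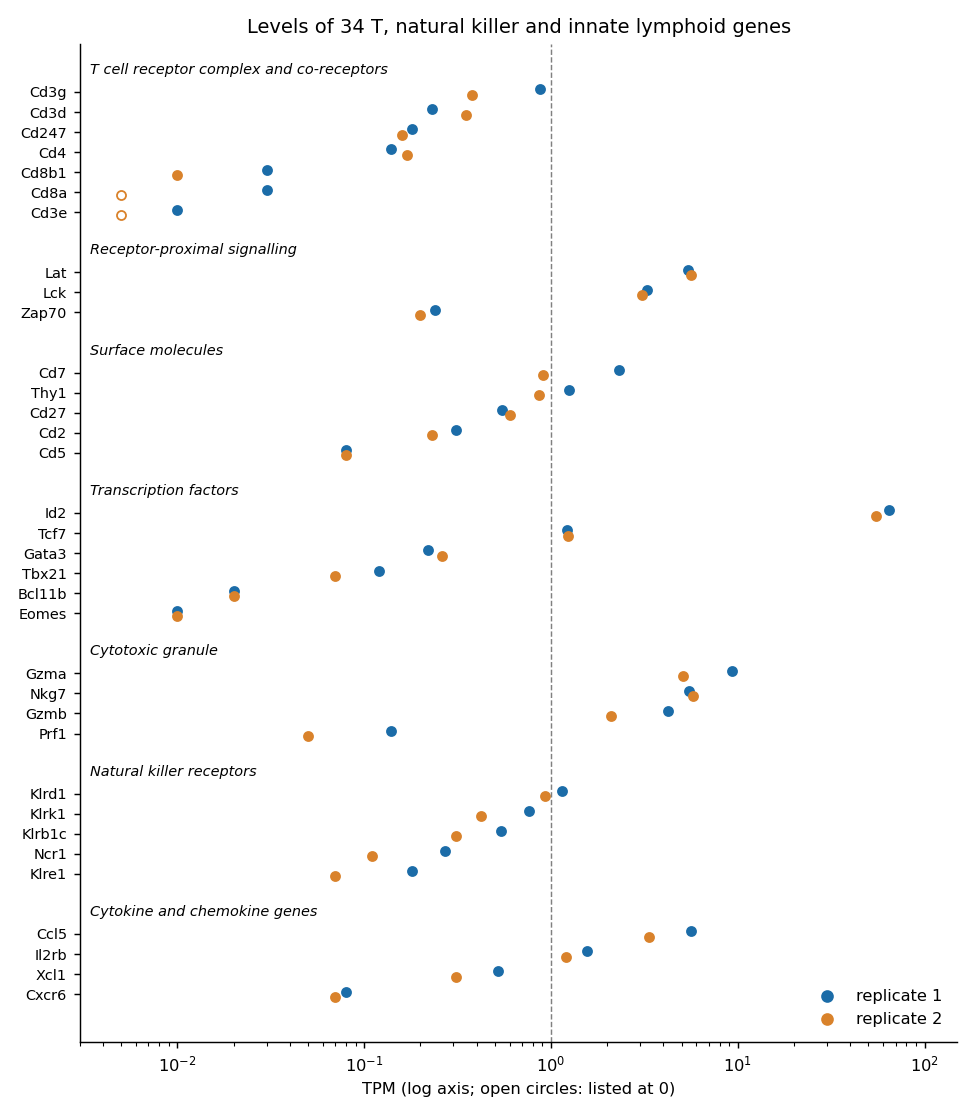
Deposited TPM (log axis) of the 34 members in replicate 1 (blue) and replicate 2 (orange), grouped by role and ordered by mean level; the dashed line marks 1 TPM. Id2 stands above all others at 64.5 and 54.8 TPM, and the CD8 chains, Cd3e, Eomes and Bcl11b lie at the low end.

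Among the members, none of the 7 CD3, zeta and co-receptor genes reached 1 TPM, and the chains were far from equal. Cd3g, which encodes the CD3 gamma chain (chromosome 9, 44969572 to 44980431 on mm10), stood at 0.87 TPM in replicate 1 and 0.38 TPM in replicate 2, from 109 and 39 counts. Cd3d, the CD3 delta gene whose start lies 1355 bases from that of Cd3g, had 39 and 49 counts, or 0.23 and 0.35 TPM. Cd3e, the CD3 epsilon gene whose start lies 27841 bases from that of Cd3d, had 2 counts in replicate 1 and 0 in replicate 2, with 95% Poisson intervals of 0.24 to 7.22 and 0 to 3.69. The gamma and delta genes were thus measured in both libraries, while the epsilon gene, which the mature receptor also needs, had an interval below both of theirs in each library. Cd247, encoding the zeta chain that T and NK cells both use, had 39.71 and 30.25 counts. Per kilobase of effective length this was 28.0 and 21.1 counts, against 1.64 and 0 for Cd3e.

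The co-receptor genes differed in level too. Cd4, which also marks some myeloid cells, gave 65 counts in replicate 1 and 44 in replicate 2, with overlapping intervals (50.2 to 82.9 and 32.0 to 59.1). Cd8a had 12 and 1 counts and Cd8b1 had 6 and 1, so each chain of CD8 rested on 1 count in replicate 2. Per kilobase, Cd4 stood at 22.5 and 21.4 counts and Cd8a at 4.12 and 0.348. The constant genes of the receptor itself were unequal as well. Those of the beta chain, Trbc1 and Trbc2, averaged 1.045 and 1.085 TPM, above the mean of every CD3, zeta and co-receptor gene. Trac, the alpha constant gene, averaged 0.5 TPM from 17 and 11 counts, and Ptcra, the pre-T alpha chain, had 10 and 3 counts. The gamma and delta constant genes were not found by symbol. Trbc1 had 115 and 44.5 counts and Trbc2 had 92.8 and 55.5; these near-identical beta constant genes share fragments, so their split is uncertain, and the software gave each a posterior SD of 2.6 and 1.91 counts. Rag1 and Rag2, which B and T progenitors use to rearrange their receptors, had 1818 and 1377 counts and 463 and 278 counts in replicates 1 and 2.

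**Figure D2:**
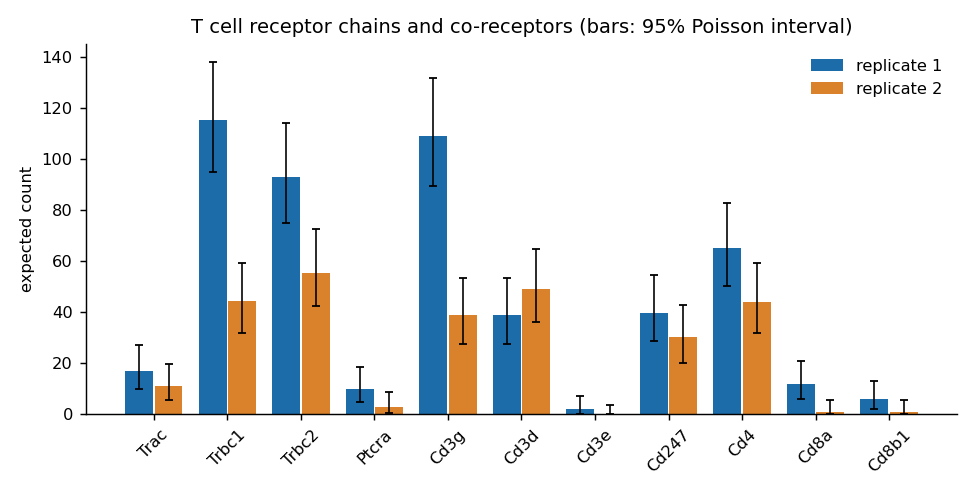
Expected counts of T cell receptor constant genes, pre-T alpha, CD3 chains and co-receptors in replicate 1 (left bar of each pair) and replicate 2 (right bar), with 95% Poisson intervals for counting error only. Cd3g and Cd3d stand at 39 to 109 counts while Cd3e, of the same cluster, has 2 and 0.

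Of the genes acting just downstream of the receptor, Lat and Lck were higher than the receptor genes measured here. Lat, the membrane adaptor phosphorylated after receptor engagement (chromosome 7, 126363824 to 126369570), stood at 5.40 TPM in replicate 1 and 5.61 in replicate 2. Lck, the Src-family kinase bound to CD4 and CD8, stood at 3.27 and 3.07 TPM. Zap70, the kinase recruited to phosphorylated CD3 and zeta chains, stood at only 0.24 and 0.20 TPM, with 71 and 53 counts. Lat and Lck thus exceeded every CD3 chain in both libraries on the TPM scale, and Zap70 did not.

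Of the surface molecules, Cd7 and Thy1 reached a mean of 1 TPM. Cd7, an immunoglobulin-family receptor of T, NK and early lymphoid cells, stood at 2.30 TPM in replicate 1 and 0.91 TPM in replicate 2, from 274 and 89 counts. Thy1, also carried by stromal and neural cells, had 295 and 168 counts. Cd27, a costimulatory receptor also found on progenitors, had 112 and 89 counts, and its ligand Cd70 had 0 in both. Cd2, an adhesion receptor, had 45 and 28 counts, whereas its ligand Cd48, carried by most blood cells, stood at 11.2 and 9.48 TPM. Cd5, which dampens receptor signals, had 23 and 19 counts.

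The transcription factors spanned the widest range of any group. Id2 (chromosome 12, 25093799 to 25097140), an inhibitor of E proteins needed for NK and innate lymphoid development, had 10574 counts in replicate 1 and 7394 in replicate 2. Its mean lay above 94.3% of protein-coding genes. Tcf7, an early T and innate lymphoid factor, was the next at 1.22 and 1.23 TPM, and Gata3 followed at 0.22 and 0.26 TPM. Id2 exceeded Gata3 by 293 and 211 times on the TPM scale. Tbx21, the T-bet gene, had 43 and 20 counts, and its relative Eomes, which conventional NK cells use, had 5 and 2. Bcl11b, the factor of T lineage commitment, had 29 and 12 counts. Bcl11b and Eomes were thus at the low end, and Id2 at the high end, of all 34 members.

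Among the 4 cytotoxic members the 2 granzymes and Nkg7 were high and perforin was low. Gzma (chromosome 13, 113093825 to 113100981), a serine protease of killer cell granules, stood at 9.28 TPM in replicate 1 and 5.10 TPM in replicate 2, from 957 and 430 counts. Gzmb (chromosome 14, 56258838 to 56262260), the granzyme that triggers caspases, had 791 and 324 counts, or 4.23 and 2.10 TPM. Both granzymes stood higher in replicate 1, and their ratio, Gzma over Gzmb, was 2.19 and 2.43. Nkg7, a granule membrane protein, stood at 5.50 and 5.79 TPM. Prf1, the pore protein that lets granzymes into the target cell, had 39 and 12 counts. Its TPM was 0.0151 and 0.0098 of that of Gzma. Prf1 stood at 0.14 and 0.05 TPM, near the medians of the list of other cytotoxic genes (0.11 and 0.05 TPM). The 5 highest genes of that list, picked by level, follow. Srgn, the proteoglycan of blood cell granules, stood at 29.8 and 31.9 TPM, and Ctsc, the protease that activates granzymes and neutrophil proteases, at 16.6 and 15.9. Unc13d and Rab27a, which act in granule release, stood at 8.36 and 9.85 TPM and at 4.03 and 5.25 TPM, and Serpinb9, an inhibitor of granzyme B, at 1.53 and 1.17 TPM. The other granzyme genes of the list were low. Gzmm had 18 and 7 counts, Gzmc 9 and 1, Gzmk 2 and 1 and Gzmf 1 and 0, and Gzmd, Gzme, Gzmg and Gzmn had 0 in both libraries.

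All 5 NK receptor genes were measured in both libraries, at low levels. Klrd1, the CD94 chain, stood at 1.15 TPM in replicate 1 and 0.93 TPM in replicate 2, from 103 and 64 counts. Its partner Klrc1, the NKG2A chain, had 101.6 and 70.1 counts, with a posterior SD of 0.56 and 0.79 counts from sharing out fragments among near-identical relatives. Klrk1, the NKG2D receptor, had 209 and 102 counts, and its adaptor Hcst stood at 7.12 and 8.21 TPM. Klrb1c, the NK1.1 antigen of this strain, had 158 and 83 counts. Ncr1, encoding NKp46, had 52 and 18, and Klre1 had 31 and 10. All 5 receptors stood higher in replicate 1, each with a counting interval of the log2 ratio wholly above equality, against 50.6% of all genes higher and 27.2% with such an interval. With the libraries scaled by their spike-ins the ratio of Klrd1 was -0.02 and the other 4 receptors stayed higher. Of the Ly49 genes, whose receptors appear late in NK maturation, Klra1 had 3 and 3 counts and Klra3 had 1 and 0, and Klra4, Klra7, Klra8 and Klra9 had 0 in both libraries. Tyrobp and Fcer1g, adaptors that myeloid cells also use, stood at 174 and 196 TPM and at 120 and 129 TPM.

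Cytokine receptor and chemokine genes completed the members. Ccl5, a chemokine of activated lymphocytes and platelets, stood at 5.64 TPM in replicate 1 and 3.36 TPM in replicate 2, from 279 and 134 counts. Il2rb, the beta chain shared by the interleukin-2 and interleukin-15 receptors, stood at 1.56 and 1.20 TPM. Its partner chain Il2rg stood at 6.24 and 6.71 TPM, and the ligand Il15 and the presenting chain Il15ra at 2.96 and 2.80 TPM and at 27.8 and 32.0 TPM. Both chains of the receptor and its ligand were thus measured in the same tissue. Cxcr6, which retains innate lymphoid cells in the liver, had 22 and 16 counts, and its ligand Cxcl16 stood at 5.27 and 6.63 TPM. Xcl1, a chemokine that draws dendritic cells, had 25 and 12 counts, and its receptor Xcr1 had 9 and 4. Ccr1, a receptor of Ccl5, stood at 3.50 and 4.40 TPM.

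The 2 libraries were then set side by side, as log2 of replicate 1 over replicate 2 on counts scaled by TMM with 0.5 added, over members that averaged at least 10 counts. Of the 30 members that did, 28 were higher in replicate 1, against 50.6% of 17616 genes, but only 14 of 30 were when the libraries were scaled by their spike-ins, against 8.06% of genes, a scaling that moved the median of all genes to -0.53. The median of the members was 0.51, against 0.00 for all genes. Spike-in scaling put the median of the members at -0.02; that scaling moves all genes by nearly the same amount. The counting interval lay wholly above equality for 17 of 30 members, against 27.2% of all genes, and wholly below it for 0, against 26.3%. The intervals cover counting error and not the spread between animals. Cd3e, Cd8a, Cd8b1 and Eomes fell below the count limit.

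The upper end of the order held Cd7, Cd3g and several killer cell genes. At a mean count of at least 50, 3 of 19 members were at least 2-fold higher in replicate 1, against 1.47% of 14956 genes, and 0 were at least 2-fold lower, against 0.348%. Among genes with mean counts from 50 to 1000, which take in 18 of these 19 members, the share at least 2-fold higher was 3.31%. At least 1.5-fold higher were 8 of the 19 members, against 4.09% of genes. At a mean count of at least 10, 7 of 30 members were at least 2-fold higher, against 3.19% of genes. The 3 with at least 50 counts were Cd7 at a log2 ratio of 1.45 (1.11 to 1.82), Cd3g at 1.31 (0.78 to 1.88) and Gzmb at 1.12 (0.93 to 1.31). With spike-in scaling none of the 3 reached 2-fold, against 0.548% of genes that did: Cd7 stood at 0.92, Cd3g at 0.77 and Gzmb at 0.58. Gzma lay just inside the limit at 0.99 (0.82 to 1.16). Below 50 counts, Prf1 stood at 1.5 (0.57 to 2.60), Klre1 at 1.42 (0.40 to 2.66) and Ncr1 at 1.34 (0.57 to 2.23). By role, the median was 1.05 for the 4 cytotoxic genes, 0.87 for the 5 NK receptors and 0.68 for the 4 cytokine and chemokine genes. It was 0.51 for 5 surface molecules, 0.35 for 5 transcription factors, 0.32 for 4 receptor complex genes and 0.25 for 3 signalling genes. With spike-in scaling the last 4 of these medians turned negative, at -0.02, -0.19, -0.21 and -0.28. Lat (0.06), Nkg7 (0.05) and Tcf7 (0.10) had intervals that took in equality. Gata3 (-0.11) and Cd3d (-0.49) were the 2 members below 0, and their intervals took in equality as well.

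**Figure D3:**
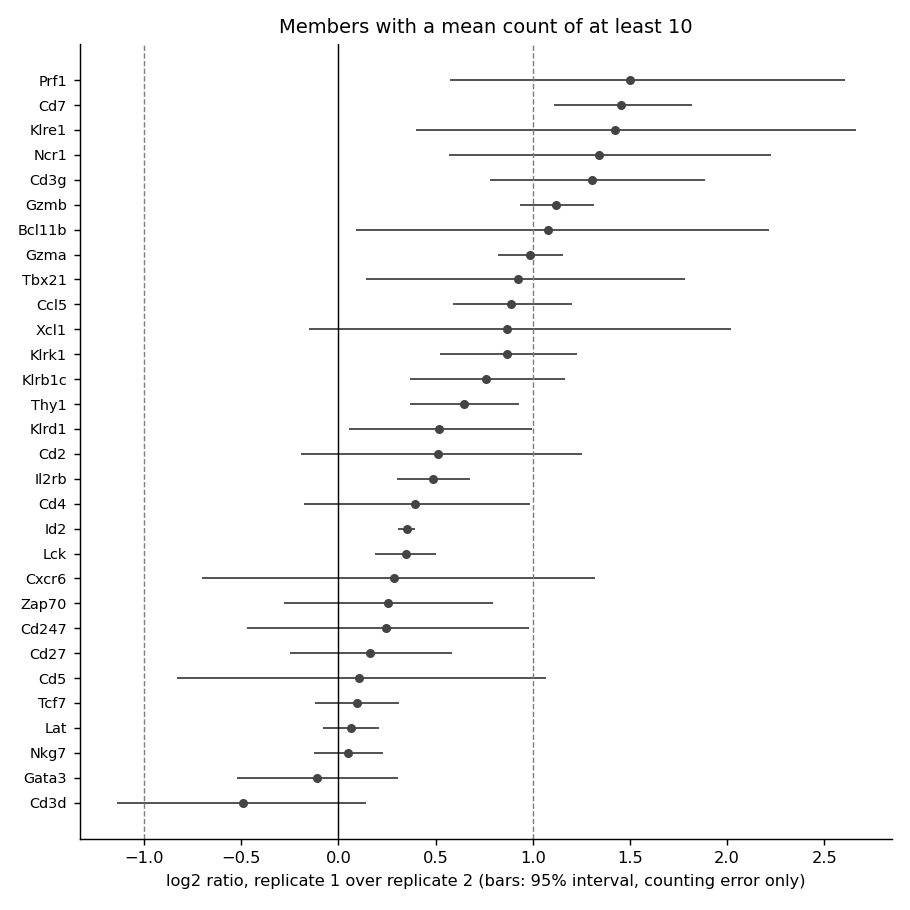
Log2 ratio of replicate 1 over replicate 2 for the 30 members that averaged at least 10 counts, with 95% intervals for counting error only; dashed lines mark 2-fold. Prf1, Cd7, Klre1, Ncr1, Cd3g, Gzmb and Bcl11b lie to the right of 2-fold, and Gata3 and Cd3d are the 2 members left of 0.

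Reads across splice junctions, deposited separately for the mm9 build with a number for each replicate, show which members were present as spliced RNA. Reads joining 2 annotated exon ends of the same member were found in both libraries for 29 of 34 members. The share over all genes was not counted, so this number does not set the members apart. Id2 had the most, with 2886 reads in replicate 1 and 1955 in replicate 2, followed by Lat with 1801 and 1605. Gzma had 880 and 467 reads, and Gzmb 287 and 127 over all 4 of its annotated introns. Of the 5 annotated Gzma introns, 1 had 0 reads in replicate 1 and 2 in replicate 2. Cd3g had 175 and 47 reads over 6 of 7 introns and Cd3d had 37 and 53 over 4 of 4. Cd3e had 1 read in replicate 1 and 0 in replicate 2, so the contrast within the CD3 cluster was also present in the spliced reads. Cxcr6 had 1 and 0 reads over its 1 annotated intron, beside 22 and 16 counts. Bcl11b had 0 reads in both libraries over 5 annotated introns despite its 29 and 12 counts. The deposited contigs, stretches of read coverage on the strand of the gene, took in 19.9% of Bcl11b exon bases. In Gzma and Gzmb the contigs took in 100% of exon bases, but also 94.5% and 89.7% of intron bases. Contigs thus hardly separate exon from intron in these 2 genes.

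The spliced reads of the 2 libraries were compared after scaling by total junction reads. Of 27 members with a mean of at least 10 junction reads, 21 were higher in replicate 1, against 39.3% of 14455 genes. Their median log2 ratio was 0.40, against -0.06 for all genes. At least 2-fold higher were 5 of 27, against 2.42% of genes: Klre1 (1.87), Cd3g (1.63), Cd7 (1.43), Cd5 (1.42) and Ncr1 (1.26). Gzma stood at 0.66 and Gzmb at 0.92. These are the same libraries read through another pipeline, so they are no second sample. Klre1 rested on 32 and 7 junction reads and Ncr1 on 35 and 12. Cd5 rested on 20 and 6 junction reads and had a ratio of 0.11 in gene counts.

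**Figure D4:**
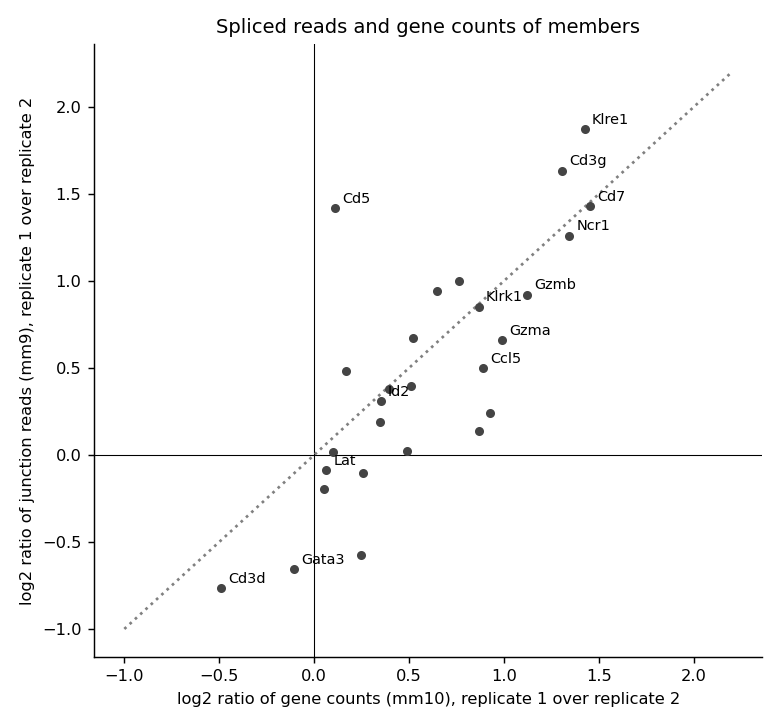
Log2 ratio of junction reads on mm9 against log2 ratio of gene counts on mm10, both replicate 1 over replicate 2, for the 27 members with a mean of at least 10 junction reads; the dotted line marks equal values. Klre1, Cd3g, Cd7 and Ncr1 lie at the upper right and Cd3d and Gata3 at the lower left, while Cd5 departs from the line.

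The leading transcript of each member was compared between the libraries. Of the 12 members with a mean of at least 1 TPM, 6 had a single annotated transcript. The same transcript led in both libraries for all 12, which could not be otherwise for those 6. Cd7 and Il2rb had counts on only 1 of their 2 transcripts. The share over all genes was not counted, so this number does not set the members apart. Tcf7-201 held 73.8% of Tcf7 in replicate 1 and 74.5% in replicate 2, with Tcf7-202 holding the rest. Lck had counts on 7 of its 8 annotated transcripts, led by Lck-202 with 30.4% and 25.5% and followed by Lck-208 with 26.7% and 24.2%. Klrd1-202 held 67.4% and 55.7% of Klrd1, and the retained-intron transcript Klrd1-204 held 27.8% and 44.3%, a difference that rests on 18.17 and 19 counts. Ccl5-201, Cd7-201 and Il2rb-201 held 99.2%, 100% and 100% in replicate 1, and 98.9%, 100% and 100% in replicate 2.

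Other lymphoid genes were counted from lists, since the members are only a part of each programme. Of 6 receptor constant, pre-T alpha and Rag genes found, 5 had enough counts. All 5 were higher in replicate 1 (median log2 ratio 0.56), against 50.6% of all genes. The gamma and delta constant genes of that list (Trdc, Trgc1, Trgc2 and Trgc4) were not found by symbol and are not counted here. Of 20 further NK receptors and adaptors, 15 were higher and 5 lower (median 0.28). For 9 other cytotoxic genes the counts were 7 and 2 (median 0.26). For 11 costimulation and homing genes they were 7 and 4 (median 0.26). That list was led by the lymphocyte exit receptor S1pr1 at 12.1 and 10.8 TPM. Foxp3, the factor of regulatory T cells, gave 0 counts in replicate 1 and 2 in replicate 2, and Cd40lg had 0 in both (both chosen after their values were seen). In the innate lymphoid list 4 of 9 genes were higher and 5 lower (median -0.18), a share near that of all genes, and the counting interval lay above equality for 3 and below it for 3. Its 5 highest genes went both ways. Arg1, an arginase that hepatocytes also make, stood at 330.4 and 326.9 TPM, the interleukin-25 receptor gene Il17rb at 8.78 and 7.96, and the lymphotoxin beta gene Ltb at 5.17 and 4.72. Kit, the stem cell factor receptor, stood at 5.16 and 7.91 TPM and Il1rl1, the interleukin-33 receptor of group 2 cells and mast cells, at 2.97 and 5.16. The cytokine genes Il13, Il17a and Csf2 had 0 counts in both libraries. Of 18 other lymphoid transcription factors, 7 were higher and 11 lower (median -0.07), led by Id3 at 36.6 and 35.7 TPM and Zbtb7b at 14.7 and 18.3 TPM. With spike-in scaling the median stayed above 0 for the receptor constant, pre-T alpha and Rag genes alone among these 6 lists (0.03). It was -0.26 for the NK list, -0.27 for the cytotoxic list and -0.27 for costimulation and homing, and -0.71 for innate lymphoid genes and -0.61 for the other factors. Differences between the lists were not tested.

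Markers of other cells that could bring these RNAs also moved between the libraries. All 18 B lymphoid genes with enough counts were higher in replicate 1, with a median of 0.52. The list summed to 797 TPM in replicate 1 and 653 TPM in replicate 2, of which Cd24a alone held 583 and 491 TPM. All 15 neutrophil genes were lower in replicate 1 (median -0.29; sums of 9805 and 14025 TPM). Mast cell and basophil genes were higher for 5 of 9 and lower for 4 (median 0.07; sums of 14.2 and 14.5 TPM). Macrophage genes were higher for 9 of 14 (median 0.12; sums of 1119 and 1199 TPM), and plasmacytoid dendritic cell genes for 8 of 10 (median 0.22; sums of 175 and 134 TPM). Bst2 alone held 155.7 and 117.9 TPM of the plasmacytoid sums, and Siglech stood at 0.47 and 0.53 TPM (log2 ratio -0.09). Of the thymic epithelial genes, Foxn1 and Psmb11 had 2 counts each in replicate 1 and 0 in replicate 2. In that list, 1 of 4 with enough counts was higher. The list summed to 6.16 and 7.67 TPM. Pancreas acinar genes summed to 106.5 TPM in replicate 1 and 33.5 TPM in replicate 2, and striated muscle genes to 34.9 and 27.6 TPM. With spike-in scaling the B lymphoid median was -0.02, with 9 of 18 genes higher, and the medians of the mast cell, macrophage and plasmacytoid lists turned negative too (-0.46, -0.42 and -0.31). Those of pancreas and muscle genes stayed positive (3.65 and 1.22). The part of these shifts in the member differences was not tested.

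**Figure D5:**
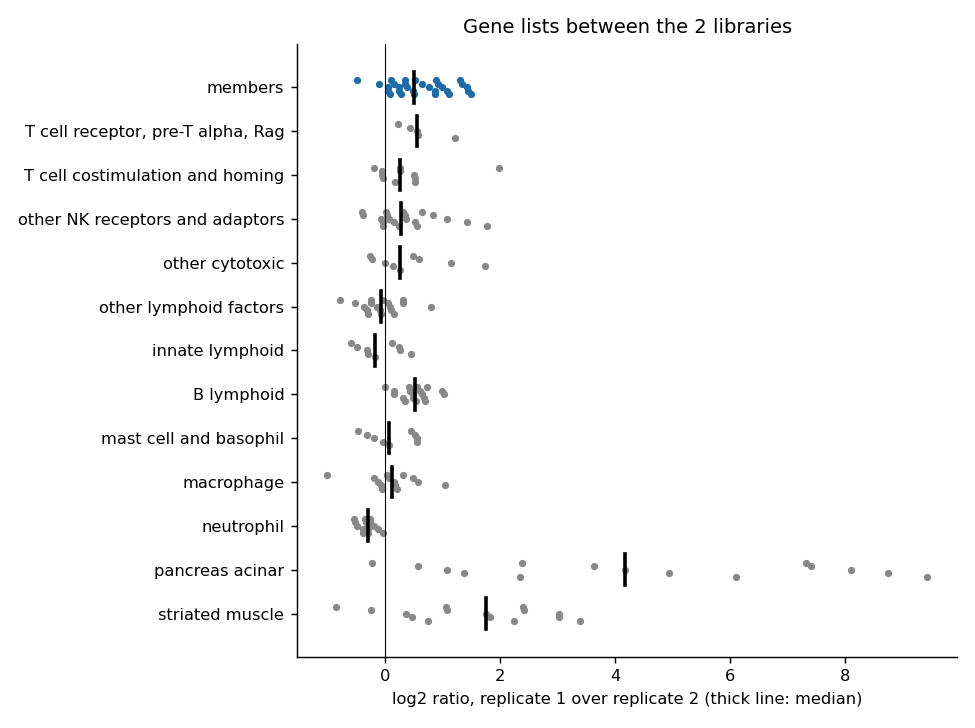
Log2 ratio of replicate 1 over replicate 2 for genes averaging at least 10 counts, as points by list, with the median of each list as a thick line. The members and the B lymphoid genes have medians of 0.51 and 0.52 (both -0.02 with spike-in scaling), the neutrophil genes lie left of 0, and the pancreas acinar genes reach far to the right.

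Of 24 genes for ligands that lymphoid cells respond to, 14 reached a mean of 1 TPM. The chemokine Cxcl12, which holds blood progenitors in their niche, stood at 67.6 TPM in replicate 1 and 60.1 in replicate 2. Clec2d, the ligand of inhibitory Klrb1 receptors, stood at 47.9 and 44.4 TPM. Cxcl10 stood at 15.4 and 11.03 TPM and Il18 at 9.01 and 7.89 TPM. The NKG2D ligands Raet1e, Ulbp1 and H60b were lower, at 1.67 and 0.98, 0.96 and 0.71, and 0.10 and 0.11 TPM. Of 23 ligand genes with enough counts, 12 were higher and 11 lower in replicate 1 (median 0.19, and -0.34 with spike-in scaling).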

How the data were processed

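Poly(A)+ RNA longer than 200 nt was sequenced as stranded 101-nt read pairs with spike-ins, per the labels. The authors deposited expected counts, TPM and FPKM per gene and the percent of a gene's TPM in each transcript, on mm10 with GENCODE M4, per the notes deposited with each sample. Their aligner and quantifier were not given in the sources used here. On mm9 the authors deposited junction read counts, contigs with a signal whose scale is not given, and 2 RPKM values per gene (ENSEMBL 65), which are not assigned to replicates here. Rows naming no mouse gene were left out (2.83% of counts in replicate 1 and 2.13% in replicate 2).

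Expected counts were rounded and scaled by TMM (edgeR 4.0.16, R 4.3.3). Log2 ratios used 0.5 added and mean counts of at least 10 (2-fold calls: 50). The ratio step was tested on simulated data. Intervals are exact, at 95%, and cover counting error only. Symbols and mm10 positions came from GENCODE M21 (884 of 43346 IDs unmatched) and promoters from RefSeq. Named were all members, up to 5 genes per other list by mean TPM, every gene of lists of up to 10, and partners of members; other names were chosen after their values were seen, and some genes are not reported here. Members, lists and motifs were chosen with earlier results of these data known. DESeq2 1.42.0 size factors and the other alternatives are given in the closing section.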

Additional observations from a re-analysis of the deposited data

Results flagged for a closer look

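Splice junctions that the deposited list does not mark as annotated were read inside 5 members, each with at least 10 reads over both libraries, above the 3 that a count of 0 allows. Positions are the first and last intron bases on mm9. Lat had 3 of them: 56 reads (32 in replicate 1 and 24 in replicate 2) across chromosome 7, 133512055 to 133512315, 12 reads (8 and 4) across 133511485 to 133511555, and 11 reads (5 and 6) across 133512919 to 133513022. Tcf7 had 33 reads (16 and 17) across chromosome 11, 52071306 to 52074032, which joins 2 exon ends of the gene that are annotated apart. Id2 had 39 reads (23 and 16) across chromosome 12, 25779436 to 25780168, and 15 reads (10 and 5) across 25779438 to 25780172. Klrd1 had 15 reads (9 and 6) across chromosome 6, 129545579 to 129546878. Some of these junctions lie next to annotated introns. Both Id2 junctions lie a few bases from the annotated 25779442 to 25780175, which had 1356 reads over both libraries. The Lat junction of 12 reads shares 1 end with the annotated 133511485 to 133511559, which had 381 reads. An annotated Klrd1 intron ends at 129546879. Whether such junctions are separate splice events was not tested. Gzma had 11 reads across chromosome 13, 113890907 to 113891089, of which 0 came from replicate 1 and 11 from replicate 2, whereas its annotated junctions had 880 and 467.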

How the results depend on the processing

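With spike-in scaling, 14 of 30 members were higher in replicate 1, 0 were beyond 2-fold and the member median reversed to -0.0165, beside -0.53 for all genes. The member median was 0.34 with deposited TPM and 0.38 with FPKM, 0.70 with no count filter, and 0.51, 0.46 and 0.47 with DESeq2 size factors, total counts and the length trend removed. Members beyond 2-fold numbered 7 at a mean count of 10 (3.19% of all genes) and 8 at 1.5-fold (4.09%), against 3 (1.47%). At 0.1 TPM, 25 members counted as present, and 2 did at 1 RPKM on mm9, against 12. The share of all genes at these 2 levels was not counted, so neither number sets the members apart. The cause of the changes from 12, beyond the looser or stricter limits, was not tested. Without Id2 the summed level was 40.2 TPM. Leaving out either replicate gave 9 to 12 members at 1 TPM and sums of 88.8 to 111 TPM. Single members changed sign in 14 cases with spike-ins, 5 with TPM, 4 with FPKM, 2 with the length trend removed, 1 with total counts and 0 with DESeq2 size factors or another added count, and no member beyond 2-fold changed sign. List medians with spike-in scaling, given with each list above, were added after seeing the data. The ratio of mm9 RPKM was not run, because the order of its 2 values goes against the numbers in the labels for Xist. No paired analysis was possible because there is 1 group. Depth limits Cd3e, Cd8a, Cd8b1 and Eomes, with mean counts under 10.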

Other observations

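Among lymphoid genes outside the members, a few low ones chosen after their values were seen differed widely between the libraries. Skap1, an adaptor of T cell adhesion signalling, had 55 counts in replicate 1 and 12 in replicate 2. Cd96, a receptor of T and NK cells, had 32 and 8, and Fasl, the death ligand of killer cells, had 46 and 12. Cxcl9, an interferon-induced chemokine, had 253 and 65, and Il7, the growth factor of lymphoid progenitors, had 116 and 35.

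The deposited mm9 gene table gives each gene 2 RPKM values, and their order went against the numbering of the other files. Xist stood at 0.0362 in the first value and 27.0 in the second, and the sum over the 4 Y-linked genes at 13.5 and 0.0207, whereas replicate 1 was high in Xist in the gene counts and in the junction reads (8759 in replicate 1 and 1 in replicate 2). For 21 members the second value was the higher and for 12 the first. The share over all genes was not counted, so these numbers do not set the members apart. Gzma stood at 0.760 and 1.39, and Cd7 at 0.194 and 0.409.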
